A study of Mus musculus with 8 samples.

Results

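The 10 genes described here encode proteins that act in meiotic strand exchange and crossover formation. They are *Dmc1*, *Psmc3ip*, *Mnd1*, *Meiob*, *Spata22*, *Mcmdc2*, *Msh4*, *Msh5*, *Hfm1* and *Tex11*. They were taken by name from a table of raw read counts with 55421 genes, and each name matched 1 row. Of the 10 genes, 9 passed the filter on low counts and were tested, with at least 10 counts in every library. The gene *Spata22* was not tested.

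The libraries were bulk mRNA-seq of primary cultures of mouse spermatogonia (SSC culture) from neonatal testes, on the strain background C57BL/6XDBA/2. The complete culture medium held GDNF, bFGF and N2. All cultures grew on irradiated embryonic fibroblasts as feeder cells, so each library holds RNA of germ cells and of feeder cells. Cultures of the genotypes Stra8KO and Spo11KO received either vehicle (Veh) or NRRA. NRRA is nutrient restriction (medium diluted mostly with a balanced salt solution) combined with retinoic acid. The dilution also lowered GDNF, bFGF and N2 in the NRRA groups. The 4 groups, Stra8KO Veh, Stra8KO NRRA, Spo11KO Veh and Spo11KO NRRA, had 2 libraries each. STRA8 is a transcription factor that germ cells need to enter meiosis, and the Stra8KO cultures ask which of the NRRA effects require it. SPO11 makes the DNA breaks that start meiotic recombination. The Spo11KO label denotes a defect in that step. Wild-type cultures were not analysed here, so every genotype difference below is between 2 mutant genotypes.

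As background, meiotic recombination begins with double-strand breaks whose ends are trimmed to single strands. The recombinase DMC1 coats these strands and pairs them with the homologous chromosome. The HOP2 and MND1 proteins, encoded by *Psmc3ip* and *Mnd1*, form a complex that helps DMC1 in this exchange. MEIOB and SPATA22 bind single-stranded DNA together, and MCMDC2 is a relative of the replicative helicase that is needed for repair of the breaks. The joint molecules are then stabilised by MSH4 and MSH5, which act as a pair, by the helicase HFM1 and by the scaffold protein TEX11, so that a part of them become crossovers. In the testis these proteins work in spermatocytes in the first meiotic prophase.

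Promoter sequence is shown for 3 of the genes, chosen because they stand for the 3 kinds of response to NRRA described below. *Dmc1* changed with NRRA in the cultures labelled Spo11KO, *Hfm1* rose in both genotypes and *Psmc3ip* fell in both. Each run is the 250 bases before the annotated start on RefSeq assembly GRCm38.p6, read 5′ to 3′ on the strand of the gene. The *Dmc1* run is chr15:79605110-79605359, the *Hfm1* run is chr5:106925891-106926140 and the *Psmc3ip* run is chr11:101095436-101095685, all on the minus strand. The *Hfm1* run lies inside the annotated gene, whose outermost start is at 106926321. Capitals mark matches on either strand to TCCCGC, the core of the E2F motif, or to CNCCTCAG, a motif known for STRA8. The last capitals of *Hfm1* are the first 6 bases of a match that runs past the start.
Dmc1: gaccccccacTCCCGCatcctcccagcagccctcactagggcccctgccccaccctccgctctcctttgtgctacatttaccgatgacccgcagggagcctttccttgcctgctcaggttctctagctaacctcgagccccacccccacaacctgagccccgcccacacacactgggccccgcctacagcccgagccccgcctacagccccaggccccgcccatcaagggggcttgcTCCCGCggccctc
Hfm1: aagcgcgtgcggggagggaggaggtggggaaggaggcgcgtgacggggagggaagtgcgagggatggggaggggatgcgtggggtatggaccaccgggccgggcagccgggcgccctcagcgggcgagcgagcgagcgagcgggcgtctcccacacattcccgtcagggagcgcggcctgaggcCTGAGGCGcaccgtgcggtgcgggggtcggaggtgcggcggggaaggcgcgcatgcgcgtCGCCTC
Psmc3ip: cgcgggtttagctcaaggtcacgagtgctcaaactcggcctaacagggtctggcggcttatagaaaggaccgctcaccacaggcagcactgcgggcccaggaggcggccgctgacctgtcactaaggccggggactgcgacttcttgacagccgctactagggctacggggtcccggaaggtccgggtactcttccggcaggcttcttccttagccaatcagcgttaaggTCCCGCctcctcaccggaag

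A window from 250 bases before to 50 bases after the start was found for 7 of the 10 genes, and not for *Meiob*, *Tex11* and *Mcmdc2*. The E2F core TCCCGC, searched on both strands, stood in 6 of these 7 windows and in 20% of all 32851 promoter windows. *Dmc1* held 2 matches, with first bases at -240 and -13 relative to the start, and *Psmc3ip* held 1 match with its first base at -20. *Msh4* was the window without a match, and its GC content of 43.3% was the lowest of the 7, against 75.3% in *Hfm1*. The *Msh4* window, chr3:153904842-153905141, lies inside the annotated gene, whose outermost start is at 153906138. Both *Msh4* values thus describe the sequence at an inner start. The STRA8 motif CNCCTCAG stood in 2 of the 7 windows, those of *Hfm1* and *Msh5*, and in 7.94% of all windows. The *Hfm1* window held 2 of these matches. The E-box CACGTG was in 0 of the 7 windows and in 7.15% of all windows. No match overlapped a match to another of these motifs. These matches describe the letters of the windows and were not tested for binding.

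Library totals lay between 20960794 and 27038868 counts. For *Stra8*, the Stra8KO libraries held 2 and 0 counts under Veh and 169 and 170 under NRRA, and the libraries labelled Spo11KO held 28 and 12 under Veh and 12604 and 16191 under NRRA. The label Stra8KO was therefore matched by a low level of the gene under NRRA, although counts above 0 were found there. The level of *Spo11* did not follow its label. It was higher in the libraries labelled Spo11KO, at 3.14 ± 0.163 CPM in Veh and 5.02 ± 0.973 CPM in NRRA (SD, n = 2), than in Stra8KO, at 1.49 ± 0.0917 and 3.16 ± 0.167 CPM. Counts over the whole gene do not check that label. CPM is the count per 1e+06 counts of a library after TMM scaling. Germ cell RNA took a smaller part of the Stra8KO libraries. The 8 pan-germ genes (*Ddx4*, *Dazl*, *Dnd1*, *Tdrd1*, *Mov10l1*, *Piwil2*, *Tdrkh* and *Rnf17*) summed to between 748 and 924 CPM in the 4 Stra8KO libraries and to between 1540 and 1870 CPM in the 4 libraries labelled Spo11KO. The 16 fibroblast genes summed to between 30100 and 45300 CPM in Stra8KO and to between 15700 and 23400 CPM in the libraries labelled Spo11KO. In bulk RNA, fewer germ cells and less RNA per germ cell cannot be told apart. Of the spermatogonia markers, 0 of 12 were under 1 CPM in every library, whereas 8 of 10 markers of pachytene and later germ cells, 5 of 8 Sertoli cell markers, 4 of 6 Leydig cell markers and 2 of 7 macrophage markers were.

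**Figure D1:**
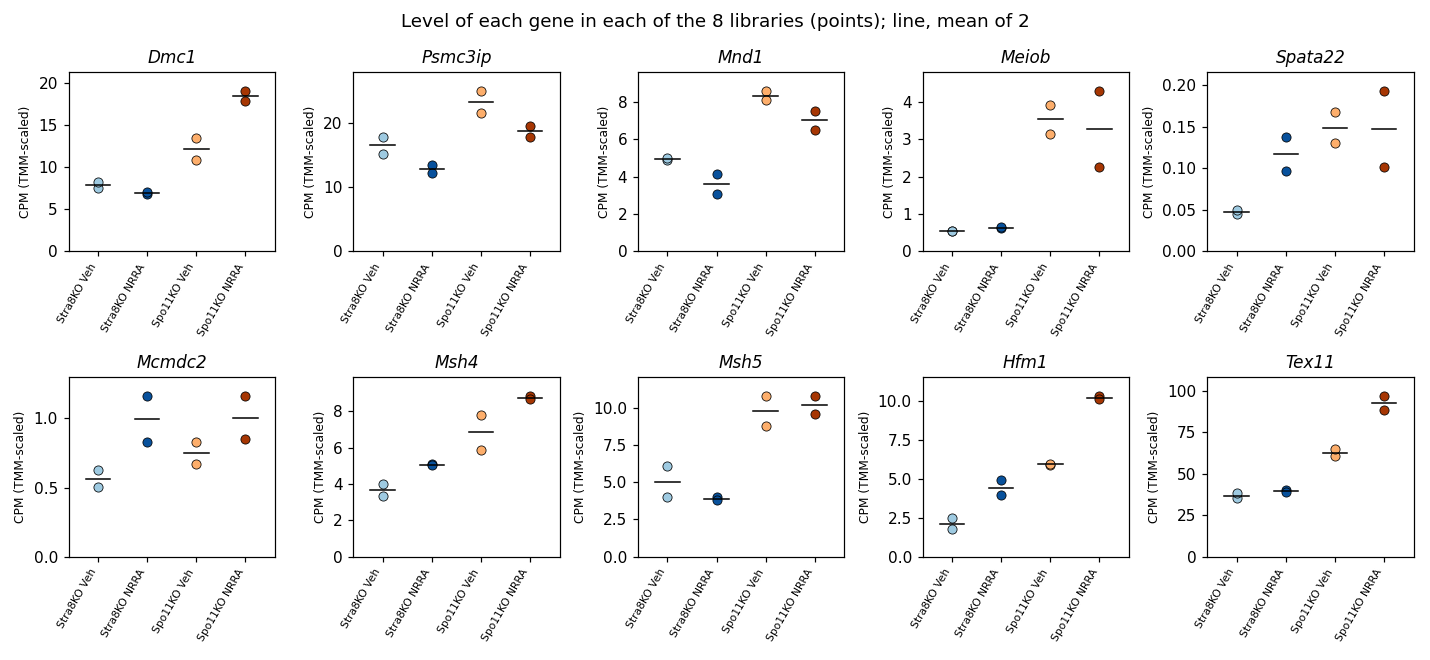
Level of each of the 10 genes in CPM after TMM scaling (vertical axis, from 0, a scale of its own for each gene) in the 4 groups (horizontal axis), with a point for each of the 2 libraries and a line at their mean. *Dmc1* and *Tex11* stand highest in Spo11KO NRRA, while *Meiob* stays under 1 CPM in the 4 Stra8KO libraries.

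Among the strand exchange genes, *Dmc1* (ENSMUSG00000022429, GRCm38 chr15:79561497-79605109, minus strand) was the gene whose response to NRRA differed most between the genotypes. It stood at 7.46 and 8.2 CPM under Veh and at 6.75 and 7.05 CPM under NRRA in Stra8KO. In the cultures labelled Spo11KO it stood at 10.8 and 13.4 CPM in Veh and at 17.8 and 19 CPM in NRRA. Both libraries of Spo11KO NRRA lay above every other library, and the Stra8KO NRRA libraries were the lowest. *Dmc1* rose 1.52-fold with NRRA in the cultures labelled Spo11KO (log2 fold change 0.61, SE 0.104, adjusted p = 2.42e-06, edgeR quasi-likelihood test). In Stra8KO the log2 fold change was -0.18 (SE 0.137, adjusted p = 0.316). Subtracting the NRRA effect of the cultures labelled Spo11KO from that of Stra8KO gave an interaction of -0.78 (SE 0.172, adjusted p = 0.000372).

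*Psmc3ip* (ENSMUSG00000019303, chr11:101091823-101095436, minus strand), which encodes HOP2, went the other way. Stra8KO had 17.9 and 15.2 CPM under Veh and 13.5 and 12.2 CPM under NRRA. The cultures labelled Spo11KO had 25 and 21.6 CPM under Veh and 17.9 and 19.6 CPM under NRRA. In each genotype both NRRA libraries lay below both Veh libraries. Such a separation of 2 from 2 libraries, here and below, was also found without a call, as for *Meiob* in Stra8KO (adjusted p = 0.741, edgeR). Its share over all genes was not computed. *Psmc3ip* fell with NRRA in Stra8KO (log2 fold change -0.37, SE 0.105, adjusted p = 0.00362) and also in cultures labelled Spo11KO (-0.31, SE 0.0897, adjusted p = 0.00285). The interaction was -0.05 (SE 0.138, adjusted p = 0.835). The fall in Stra8KO lost its call without Stra8KO Veh replicate 1 (-0.24, adjusted p = 0.163) or without Stra8KO NRRA replicate 2 (-0.29, adjusted p = 0.0747), and that in Spo11KO without Spo11KO Veh replicate 1 (-0.20, adjusted p = 0.132). With DESeq2, the tool named by the study, the call in Spo11KO was also lost (adjusted p = 0.0619). Exons of *Mlx* on the opposite strand cover 21.2% of the *Psmc3ip* exon bases, and whether the counting used strand is not given in the sources used here.

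*Mnd1* (ENSMUSG00000033752, chr3:84087933-84155786, minus strand), the partner of HOP2, stood at 4.87 and 4.98 CPM under Veh and at 3.09 and 4.15 CPM under NRRA in Stra8KO. Cultures labelled Spo11KO stood at 8.58 and 8.08 CPM in Veh and at 6.51 and 7.53 CPM in NRRA. The NRRA libraries again lay below the Veh libraries in both genotypes. The fall passed the test in Stra8KO (log2 fold change -0.44, SE 0.18, adjusted p = 0.044) and the lower level in the cultures labelled Spo11KO did not (-0.24, SE 0.139, adjusted p = 0.146). These effects were not shown to differ (interaction -0.20, SE 0.227, adjusted p = 0.6). The call in Stra8KO was lost without Stra8KO Veh replicate 1 (adjusted p = 0.112), without Stra8KO Veh replicate 2 (adjusted p = 0.131) and without Stra8KO NRRA replicate 1 (-0.24, adjusted p = 0.407). Without Stra8KO NRRA replicate 2 the log2 fold change was -0.67. DESeq2 (adjusted p = 0.134) and a fit with no filter on low counts (adjusted p = 0.0547) did not call it either.

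*Meiob* (ENSMUSG00000024155, chr17:24804289-24839788, plus strand) had few counts, between 11 and 14 in the Stra8KO libraries and between 59 and 126 in the libraries labelled Spo11KO. As CPM, Stra8KO gave 0.536 and 0.553 under Veh and 0.627 and 0.645 under NRRA, against 3.15 and 3.91 under Veh and 2.27 and 4.29 under NRRA in the cultures labelled Spo11KO. The genotypes were separated in both media, and the Spo11KO NRRA libraries spanned both Spo11KO Veh libraries. The NRRA effect had a log2 fold change of 0.22 in Stra8KO (SE 0.468, adjusted p = 0.741) and of -0.09 in the cultures labelled Spo11KO (SE 0.224, adjusted p = 0.776). Its partner *Spata22* (ENSMUSG00000112920, chr11:73329741-73346044, plus strand) had between 1 and 5 counts in each library, around the floor of 3 counts, so no fold change is given. The annotated gene *Gm49340* shares 80.5% of the *Spata22* exon bases on the same strand and had 0 counts in all 8 libraries. How reads that match both genes were counted is not given, and the level of *Spata22* is uncertain for that reason.

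*Mcmdc2* (ENSMUSG00000046101, chr1:9908638-9942085, plus strand) had between 10 and 34 counts per library. Its CPM in Stra8KO was 0.625 and 0.503 under Veh and 1.16 and 0.83 under NRRA, and the cultures labelled Spo11KO had 0.673 and 0.826 under Veh and 0.848 and 1.16 under NRRA. The NRRA libraries were the higher ones in each genotype. A change was not detectable at this depth, with log2 fold changes of 0.80 in Stra8KO (SE 0.431, adjusted p = 0.137) and 0.43 in the cultures labelled Spo11KO (SE 0.384, adjusted p = 0.376). Exons of *Snhg6* on the opposite strand cover 2.15% of the *Mcmdc2* exon bases. Whether the counting used strand is not given, so a part of these few counts from *Snhg6* was not excluded.

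Among the crossover genes, *Hfm1* (ENSMUSG00000043410, chr5:106840192-106926321, minus strand), which encodes a DNA helicase, rose with NRRA in both genotypes. It stood at 2.46 and 1.76 CPM under Veh and at 4.92 and 3.96 CPM under NRRA in Stra8KO. Cultures labelled Spo11KO stood at 5.89 and 5.95 CPM in Veh and at 10.3 and 10.1 CPM in NRRA. The groups did not overlap in either genotype. The rise was 2.08-fold in Stra8KO (log2 fold change 1.06, SE 0.204, adjusted p = 2.34e-05) and 1.72-fold in the cultures labelled Spo11KO (0.78, SE 0.14, adjusted p = 5.25e-06). The interaction was 0.28 (SE 0.25, adjusted p = 0.476), so a difference between the rises was not shown. Both calls were kept under every alternative setting with a test at an adjusted p under 0.05, every left-out library included, and when libraries were scaled to the pan-germ genes (0.80, adjusted p = 0.00109, and 0.54, adjusted p = 0.00162).

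*Tex11* (ENSMUSG00000009670, chrX:100838648-101059667, minus strand) had the highest counts of the 10 genes, between 763 and 2840 per library. It stood at 35.3 and 38.4 CPM under Veh and at 40.3 and 38.9 CPM under NRRA in Stra8KO. In the cultures labelled Spo11KO it stood at 60.8 and 64.8 CPM in Veh and at 88.8 and 96.8 CPM in NRRA. Both NRRA libraries lay above both Veh libraries in each genotype, by little in Stra8KO. *Tex11* rose 1.48-fold in the cultures labelled Spo11KO (log2 fold change 0.56, SE 0.0551, adjusted p = 1.74e-12), and the log2 fold change in Stra8KO was 0.10 (SE 0.0665, adjusted p = 0.216). The interaction was -0.46 (SE 0.0864, adjusted p = 3.82e-05).

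*Msh4* (ENSMUSG00000005493, chr3:153857149-153906138, minus strand) and *Msh5* (ENSMUSG00000007035, chr17:35028605-35046745, minus strand) encode a protein pair, of which *Msh4* was called with NRRA and *Msh5* was not. For *Msh4* the CPM values of Stra8KO were 3.35 and 4.02 under Veh and 5.11 and 5.02 under NRRA, and those of the cultures labelled Spo11KO were 5.89 and 7.82 under Veh and 8.83 and 8.66 under NRRA. It rose with NRRA in Stra8KO (log2 fold change 0.46, SE 0.18, adjusted p = 0.0331) and also in cultures labelled Spo11KO (0.35, SE 0.14, adjusted p = 0.0321). Both adjusted p-values were close to the threshold. That in Stra8KO was lost without Stra8KO Veh replicate 1 (0.33, adjusted p = 0.27), without Stra8KO NRRA replicate 1 (adjusted p = 0.102) and without Stra8KO NRRA replicate 2 (adjusted p = 0.0871). That in Spo11KO was lost without Spo11KO Veh replicate 1 (0.16, adjusted p = 0.467), without Spo11KO NRRA replicate 1 (adjusted p = 0.111) and without Spo11KO NRRA replicate 2 (adjusted p = 0.0962), and stood at 0.56 without Spo11KO Veh replicate 2. DESeq2 called neither rise (adjusted p = 0.179 and 0.219), and a fit with no filter on low counts did not call that in Stra8KO (adjusted p = 0.0552). Relative to the pan-germ genes the log2 fold changes of *Msh4* were 0.20 (adjusted p = 0.36) and 0.11 (adjusted p = 0.547).

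For *Msh5* the CPM values of Stra8KO were 6.08 and 4.02 under Veh and 4 and 3.78 under NRRA, and those of the cultures labelled Spo11KO were 10.8 and 8.78 under Veh and 10.8 and 9.61 under NRRA. The Stra8KO Veh libraries were far apart, and the groups labelled Spo11KO overlapped. The NRRA effect was -0.39 on the log2 scale in Stra8KO (SE 0.183, adjusted p = 0.0841) and 0.05 in the cultures labelled Spo11KO (SE 0.131, adjusted p = 0.765), with an interaction of -0.44 (SE 0.225, adjusted p = 0.157). Without Stra8KO Veh replicate 2, the lower of its pair, *Msh5* was called lower with NRRA in Stra8KO (-0.64, adjusted p = 0.00874) and its interaction was called (-0.70, adjusted p = 0.0262).

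**Figure D2:**
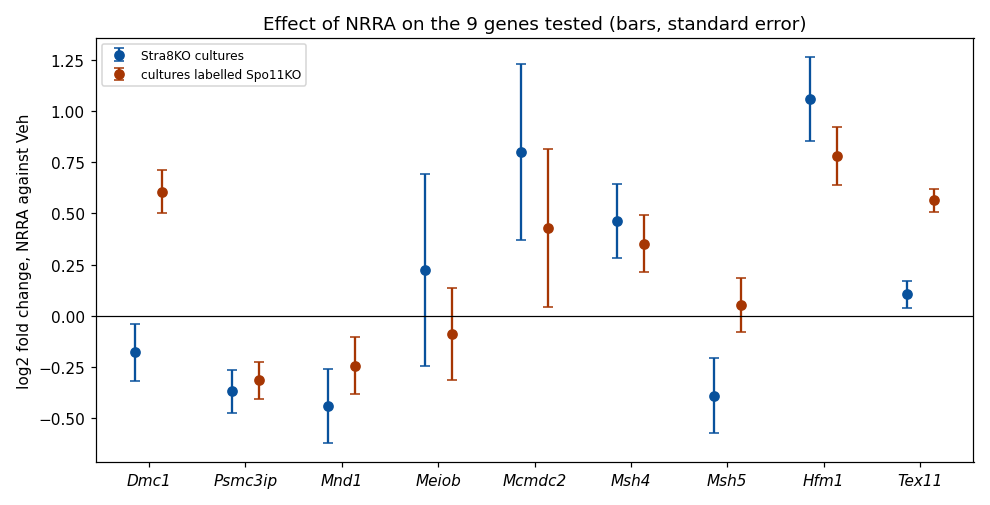
Effect of NRRA on the 9 genes tested, as log2 fold change of NRRA against Veh (vertical axis) for each gene (horizontal axis), in Stra8KO cultures and in cultures labelled Spo11KO; bars are standard errors of the fit. *Dmc1* and *Tex11* lie at 0.61 and 0.56 in the cultures labelled Spo11KO and at -0.18 and 0.10 in Stra8KO, while *Hfm1* lies above 0 and *Psmc3ip* below 0 in both.

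In total, 4 of the 9 genes tested were called with NRRA in Stra8KO, *Hfm1* and *Msh4* higher and *Psmc3ip* and *Mnd1* lower, where 41.9% of the 20588 genes tested were called (21.6% higher, 20.2% lower). In the cultures labelled Spo11KO 5 of 9 were called, with *Dmc1*, *Tex11*, *Hfm1* and *Msh4* higher and *Psmc3ip* lower, where 49.9% of all genes tested were called (24.5% higher, 25.5% lower). Both shares were near those of all genes. The 9 genes had a median log2 fold change of 0.10 in Stra8KO and one of 0.35 in the cultures labelled Spo11KO, against 0.01 over all genes tested in each. The median in Stra8KO was 0.04 without Stra8KO Veh replicate 1 and 0.16 without Stra8KO Veh replicate 2. The median in Spo11KO was 0.21 without Spo11KO Veh replicate 1, 0.16 without Spo11KO NRRA replicate 2 and 0.56 without Spo11KO Veh replicate 2. Calls fell to 1 of 9 in Stra8KO without Stra8KO Veh replicate 1 and to 3 of 9 in Spo11KO without Spo11KO Veh replicate 1. The 10 genes together summed to between 76.7 and 79.5 CPM in the 4 Stra8KO libraries, to 132 and 135 CPM under Veh in the cultures labelled Spo11KO and to 164 and 177 CPM under NRRA there. The 8 pan-germ genes moved as well, with 5 called higher with NRRA in Stra8KO (median log2 fold change 0.19) and 6 in the cultures labelled Spo11KO (0.18), and the summed fibroblast level was higher under NRRA in each genotype. Scaled to the pan-germ genes, *Dmc1* (-0.44, adjusted p = 0.00768) and *Msh5* (-0.65, adjusted p = 0.00405) were also called lower with NRRA in Stra8KO, *Mnd1* (-0.49, adjusted p = 0.0042) was also called lower in the cultures labelled Spo11KO, and *Msh4* was called in neither.

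For the interaction, 2 of the 9 genes were called, *Dmc1* and *Tex11*, both lower, where 25.1% of all genes tested were called (14.8% higher, 10.3% lower). Pan-germ genes had interaction terms between -0.26 and 0.28 on the log2 scale, smaller in size than those of *Dmc1* and *Tex11*. Of these 8 genes, 1 was called higher and 2 lower. The 12 spermatogonia markers had wider terms, with 7 called higher and 2 lower, a median of 0.71 and a range from -1.99 to 2.82. The 12 include *Stra8*, the gene knocked out in Stra8KO, so their counts and range are not free of the knockout itself. Calls with NRRA for the 12 markers were 7 up and 4 down in Spo11KO, and 10 up and 1 down in Stra8KO. The 7 up in Spo11KO were among *Lin28a*, *Sall4*, *Uchl1*, *Kit*, *Dmrt1*, *Sohlh1*, *Sohlh2* and *Stra8*, so the 12 did not fall as a set. Among the 12, *Gfra1*, *Etv5*, *Id4* and *Zbtb16*, genes of undifferentiated spermatogonia, fell with NRRA in the cultures labelled Spo11KO. Their log2 fold changes there were -1.85, -3.34, -1.37 and -1.04. In Stra8KO *Etv5* fell (-0.53) and *Gfra1* (0.80), *Id4* (1.33) and *Zbtb16* (0.59) rose. The part of this shift in the terms of *Dmc1* and *Tex11* was not tested. When libraries were scaled to the pan-germ genes, the terms were -0.80 for *Dmc1* and -0.47 for *Tex11*. Over the 8 fits that left out a library, they lay between -0.94 and -0.64 for *Dmc1* and between -0.52 and -0.39 for *Tex11*, and both calls were kept in each.

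The genotypes differed in the same direction for 8 of the 9 genes tested in each medium. In Veh, *Meiob*, *Hfm1*, *Msh5*, *Msh4*, *Tex11*, *Mnd1*, *Dmc1* and *Psmc3ip* were lower in Stra8KO than in the cultures labelled Spo11KO, where 62.3% of all genes tested were called (31.6% higher, 30.7% lower). In NRRA the same 8 genes were lower, where 64% of all genes were called (35% higher, 28.9% lower). *Mcmdc2* was not called in either medium, with log2 fold changes of -0.40 (SE 0.445, adjusted p = 0.45) and -0.03 (SE 0.372, adjusted p = 0.957). The median log2 fold change of the 9 genes was -0.77 in Veh and -1.20 in NRRA, against 0.00 and 0.07 over all genes tested. The counts of 8 did not change when any library was left out.

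*Meiob* had the widest gap between the genotypes. Its level was 6.43-fold lower in Stra8KO Veh than in Spo11KO Veh (log2 fold change -2.69, SE 0.33, adjusted p = 9.24e-10) and 5.18-fold lower in NRRA (-2.37, SE 0.316, adjusted p = 6.71e-09). *Hfm1* followed in Veh with a log2 fold change of -1.48 (SE 0.191, adjusted p = 2.8e-09) and was at -1.20 in NRRA (SE 0.15, adjusted p = 1.11e-09). *Psmc3ip* had the narrowest gap of the called genes, at -0.49 in Veh (SE 0.0949, adjusted p = 1.35e-05) and -0.55 in NRRA (SE 0.0998, adjusted p = 5.01e-06). *Dmc1* went from -0.63 in Veh (SE 0.123, adjusted p = 1.61e-05) to -1.41 in NRRA (SE 0.116, adjusted p = 3.59e-15). *Tex11* went from -0.77 (SE 0.0623, adjusted p = 2.11e-15) to -1.23 (SE 0.0589, adjusted p = 7e-24).

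The germ cell and feeder genes moved with the same comparison. The 8 pan-germ genes were each called lower in Stra8KO, with a median log2 fold change of -1.003 in Veh and of -1.13 in NRRA, and the 16 fibroblast genes were each called higher, with medians of 1 and 0.97. The pan-germ sum of Stra8KO was 48% of that in the cultures labelled Spo11KO in Veh and 48.6% in NRRA. Scaling each library to its pan-germ genes shifted the median of all genes from 0.00 to 1.06 in Veh and from 0.07 to 1.11 in NRRA, which reverses the sign of a difference smaller than that shift. On this scale 3 of the 9 genes were higher and 1 lower in Stra8KO in Veh. *Dmc1* (0.43, adjusted p = 0.00256), *Tex11* (0.29, adjusted p = 0.000213) and *Psmc3ip* (0.57, adjusted p = 4.46e-06) were the higher genes, and *Meiob* (-1.63, adjusted p = 6.15e-05) was the lower one. In NRRA 2 were higher, *Psmc3ip* (0.50, adjusted p = 6.2e-05) and *Mcmdc2* (1.01, adjusted p = 0.0132), and 3 were lower, *Meiob* (-1.33, adjusted p = 0.000437), *Dmc1* (-0.37, adjusted p = 0.00612) and *Tex11* (-0.19, adjusted p = 0.00824). *Dmc1* and *Tex11* thus lay above the cultures labelled Spo11KO in Veh and below them in NRRA, per pan-germ RNA. *Meiob* was lower in Stra8KO on both scales and in both media.

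Per 10000 pan-germ counts, Stra8KO had 99.7 and 109 *Dmc1* counts under Veh and 73 and 81.1 under NRRA, and the cultures labelled Spo11KO had 70.2 and 84.8 under Veh and 97.7 and 101 under NRRA. The 2 genotypes thus crossed over between the media for this gene. For *Meiob* these counts were 7.16 and 7.38 under Veh and 6.78 and 7.42 under NRRA in Stra8KO, and 20.5 and 24.8 under Veh and 12.5 and 22.9 under NRRA in the cultures labelled Spo11KO. Its Stra8KO mean was 32.1% of the Spo11KO mean in Veh and 40.1% in NRRA, the lowest such share among the 10 genes in each medium. This scaling rests on equal pan-germ RNA per germ cell in all groups, which was not tested.

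**Figure D3:**
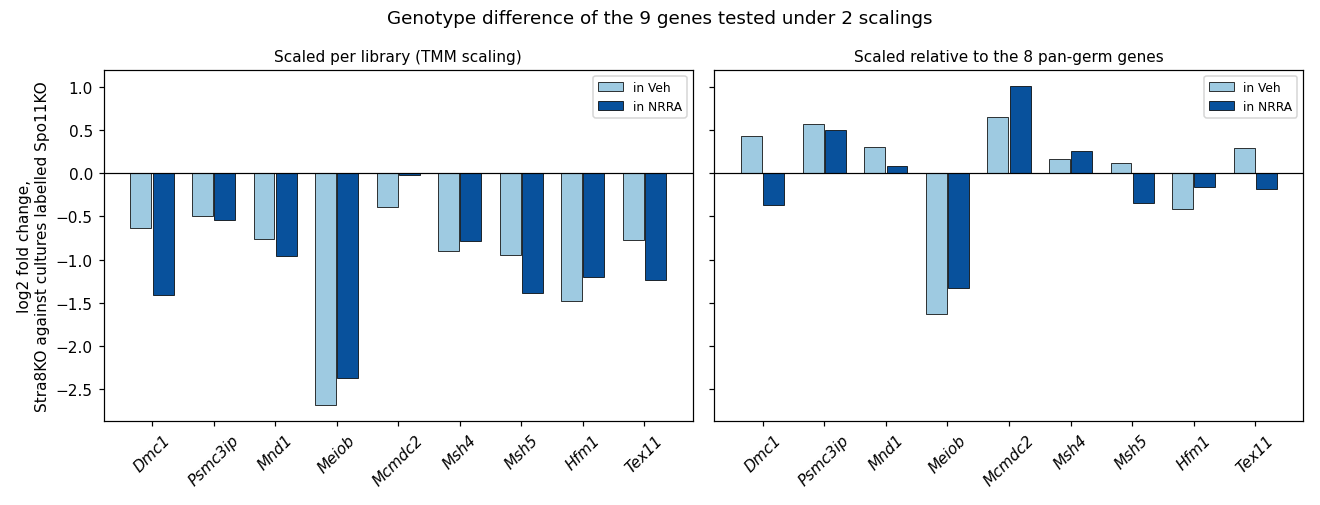
Difference between Stra8KO and the cultures labelled Spo11KO for the 9 genes tested, as log2 fold change (vertical axis), in Veh and in NRRA, with libraries scaled by TMM (left) or to the 8 pan-germ genes (right). With TMM scaling each bar lies below 0, while on the pan-germ scale *Meiob*, at -1.63 and -1.33, and *Hfm1* are the genes below 0 in both media.

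Compared per kilobase of exon, *Tex11* had the highest level of the 10 genes in every group, from 10.2 ± 0.593 CPM per kb in Stra8KO Veh to 25.6 ± 1.56 CPM per kb in Spo11KO NRRA (SD, n = 2). Its margin over *Psmc3ip* in Stra8KO Veh, where *Psmc3ip* stood at 9.09 ± 1.04 CPM per kb, was about the SD of *Psmc3ip*. In Spo11KO NRRA, *Psmc3ip* (10.3 ± 0.652 CPM per kb), *Mnd1* (8.03 ± 0.822) and *Dmc1* (7.55 ± 0.352) followed, and *Mnd1* and *Dmc1* did not differ beyond their spread. *Msh5* (1.85 ± 0.151 CPM per kb), *Meiob* (1.82 ± 0.793), *Hfm1* (1.52 ± 0.0251) and *Msh4* (1.27 ± 0.0174) came next, and *Meiob* did not differ from *Msh5*, *Hfm1* or *Msh4* beyond its spread. *Mcmdc2* (0.17 ± 0.0371 CPM per kb) and *Spata22* (0.116 ± 0.0502) were the lowest and were within the spread of each other. The *Spata22* value divides by all its exon bases, of which 80.5% are shared with *Gm49340*, so its place in this order is uncertain. Under Veh in Stra8KO, *Hfm1* (0.315 ± 0.0737 CPM per kb) and *Meiob* (0.302 ± 0.00674) were also within the spread of each other.

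**Figure D4:**
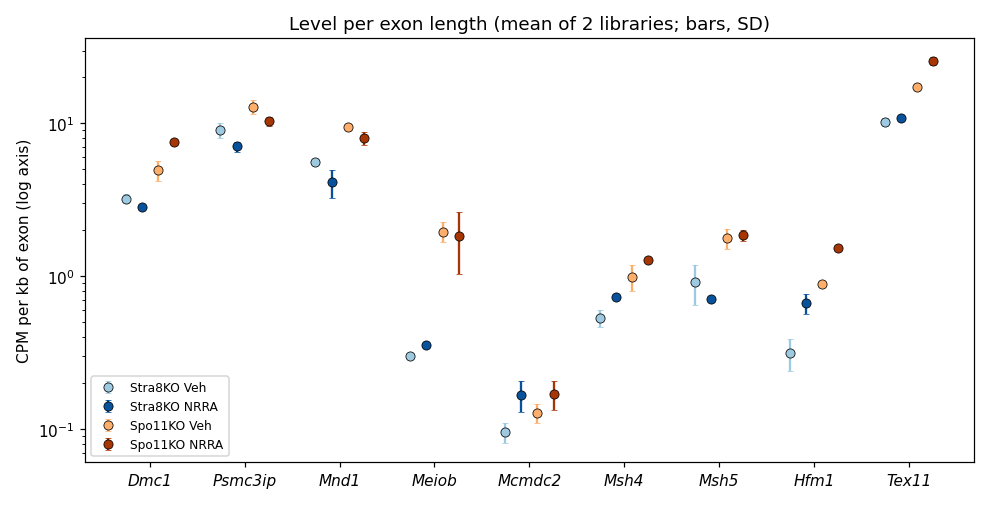
Level per kilobase of exon of the 9 genes tested (log axis), as the mean of 2 libraries in each of the 4 groups, with SD bars. *Tex11*, *Psmc3ip*, *Mnd1* and *Dmc1* lie at 2.83 CPM per kb or more in every group, and *Mcmdc2* lies at 0.17 CPM per kb or less.

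Other genes of strand exchange, a list of 27 that includes subunits of RPA and the pair MCM8 and MCM9, moved in both directions with NRRA. In Stra8KO 9 of 27 were called, 6 higher and 3 lower, where 41.9% of all genes tested were called, and the median log2 fold change was 0.02. *Zswim7* (0.69, SE 0.124, adjusted p = 7.15e-06) and *Hsf2bp* (0.66, SE 0.138, adjusted p = 8.65e-05) rose most. *Mcm8* (-0.33, SE 0.0872, adjusted p = 0.00185) and *Rad54b* (-0.26, SE 0.102, adjusted p = 0.0379) were the lowest. The call of *Mcm8* was lost without Stra8KO Veh replicate 2 (adjusted p = 0.0622). That of *Rad54b* was lost without Stra8KO Veh replicate 1 (-0.18, adjusted p = 0.327), without Stra8KO NRRA replicate 2 (-0.09, adjusted p = 0.624) and with DESeq2 (adjusted p = 0.096), and it stood at -0.45 without Stra8KO NRRA replicate 1. With libraries scaled to the pan-germ genes, 3 of the 27 were higher and 16 lower.

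Of the same 27 genes, 15 were called in the cultures labelled Spo11KO (8 higher, 7 lower), where 49.9% of all genes tested were called, and the median was -0.04. There *Zswim7* (0.38, adjusted p = 0.00296) and *Rbbp8*, which starts the trimming of break ends (0.37, adjusted p = 2.31e-06), rose most, and *Rpa1*, a subunit of the single-strand binding protein RPA (-0.42, adjusted p = 7.17e-11), and *Mcm9* (-0.35, adjusted p = 0.000216) fell most. Scaled to the pan-germ genes, *Zswim7* (0.14, adjusted p = 0.329) and *Rbbp8* (0.13, adjusted p = 0.117) were not called. The interaction was called for 7 of 27, where 25.1% of all genes tested were called, with *Xrcc3* (0.51, adjusted p = 0.0017) and *Brca2* (0.46, adjusted p = 8.35e-07) the highest and *Rbbp8* (-0.50, adjusted p = 0.000116) the single lower gene. The balance of 6 higher and 1 lower depended on the processing. It was 5 and 4 with DESeq2 size factors, 3 and 5 with total counts and 4 and 4 with no filter.

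Other crossover genes, a list of 20 with the resolvases and the BLM helicase complex, gave 5 calls in each genotype, 3 higher and 2 lower, beside the 41.9% and 49.9% of all genes tested. These counts rested on single libraries. In Stra8KO 2 calls were left without Stra8KO Veh replicate 2 and 3 without Stra8KO NRRA replicate 1. In Spo11KO 1 call was left without Spo11KO Veh replicate 1 and 3 without Spo11KO NRRA replicate 1. DESeq2 gave 3 calls in Stra8KO and 1 in Spo11KO, and pan-germ scaling gave 15 calls (1 higher, 14 lower) and 12 calls (0 higher, 12 lower). Scaling by total counts gave 9 calls in Spo11KO, all higher.

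*Rnf212*, a factor that marks crossover sites, rose in Stra8KO (log2 fold change 0.88, SE 0.227, adjusted p = 0.0013), a call kept in every fit that left out a library. In the cultures labelled Spo11KO it was at 0.56 (SE 0.178, adjusted p = 0.00773), with the call lost without Spo11KO Veh replicate 1 (0.39, adjusted p = 0.151), with DESeq2 (adjusted p = 0.11) and with pan-germ scaling (0.31, adjusted p = 0.147). *Rmi2*, of the BLM complex, was called at 0.65 in Stra8KO (adjusted p = 0.013) and at 0.46 in Spo11KO (adjusted p = 0.0205). Its call in Stra8KO was lost without Stra8KO Veh replicate 2 (adjusted p = 0.142), without Stra8KO NRRA replicate 1 (adjusted p = 0.09), with DESeq2 (adjusted p = 0.1) and with pan-germ scaling (0.39, adjusted p = 0.13). Its call in Spo11KO was lost without Spo11KO Veh replicate 1 (adjusted p = 0.0561), Veh replicate 2 (adjusted p = 0.115) or NRRA replicate 2 (adjusted p = 0.193), with DESeq2 (adjusted p = 0.186) and with pan-germ scaling (0.22, adjusted p = 0.299).

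The lower genes of this list were as dependent on single libraries. *Blm* (-0.23, adjusted p = 0.0122) and *Cntd1* (-0.17, adjusted p = 0.0383) were called lower in Stra8KO. *Blm* was not called without Stra8KO Veh replicate 2 (adjusted p = 0.107) or NRRA replicate 2 (-0.14, adjusted p = 0.229), and *Cntd1* was not called without any 1 of the 4 Stra8KO libraries (adjusted p between 0.0979 and 0.159) or with DESeq2 (adjusted p = 0.081). The nuclease genes *Mus81* (-0.32, adjusted p = 0.00893) and *Gen1* (-0.24, adjusted p = 0.0163) were called lower in the cultures labelled Spo11KO. *Mus81* was not called without Spo11KO Veh replicate 1 (-0.15, adjusted p = 0.371) or NRRA replicate 1 (adjusted p = 0.0684) or with DESeq2 (adjusted p = 0.0933). *Gen1* was not called without Spo11KO Veh replicate 1 (adjusted p = 0.0628) or NRRA replicate 1 (-0.14, adjusted p = 0.306), with DESeq2 (adjusted p = 0.167) or with no filter (adjusted p = 0.0889). *Mus81* stood at -0.48 without Spo11KO Veh replicate 2, and *Gen1* at -0.40 without Spo11KO NRRA replicate 2. With total counts, neither *Mus81* (adjusted p = 0.0674) nor *Gen1* (adjusted p = 0.14) was called.

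*Cdk2* (-0.36, adjusted p = 0.00142) was the single crossover gene of the list with a called interaction, against 25.1% of all genes tested. The count was 2 without Stra8KO Veh replicate 1 or Stra8KO NRRA replicate 1 and 3 without Spo11KO Veh replicate 2. *Cdk2* kept its call in every fit that left out a library. Between the genotypes, 24 of the 27 strand exchange genes and 17 of the 20 crossover genes were lower in Stra8KO in Veh, and 22 and 18 were lower in NRRA, beside the pan-germ and fibroblast shifts given above and the 30.7% and 28.9% of all genes called lower. Scaled to the pan-germ genes the directions turned, with 17 strand exchange genes higher and 1 lower and 10 crossover genes higher and 1 lower in Veh, and 17 higher with 2 lower and 12 higher with 3 lower in NRRA.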

How the data were processed

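The authors deposited raw read counts per Ensembl gene for 8 libraries, with no pooling of replicates. Per the submitters' processing notes, the genome was mm10 and the tools were bcl2fastq, STAR 2.6.1c and featureCounts 1.6.4; the annotation release and the handling of strand and multi-mapping reads are not given in the sources used here. The labels and the study name different library kits. Gene coordinates and exon lengths came from GENCODE M21 by identifier (55154 of 55421 matched), and promoters from RefSeq.

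The test was that of edgeR 4.0.16 (R 4.3.3). After filterByExpr, 20588 genes were tested in a group-means model of all 8 libraries, with TMM scaling, robust quasi-likelihood dispersions and two-sided tests. P-values were adjusted by Benjamini-Hochberg over all genes tested, and calls are those with an adjusted p under 0.05. The study's own tool, DESeq2 1.42.0, was an alternative, as were other scalings, filters, thresholds, a replicate block and leaving out each library. The steps were tested on simulated data.

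The 10 genes and all lists were chosen with earlier results of these data known. Named partners are the 2 genes of each list with the largest rise and fall among its called genes, where the mean log2 CPM was 1 or more. The study describes its replicates as independent and biological, but not whether the cultures of a group were derived separately, so p-values measure the spread between these libraries. A planned comparison of protein sequences was not run.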

Additional observations from a re-analysis of the deposited data

Results flagged for a closer look

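The NRRA effect differed between the genotypes for *Dmc1* and *Tex11*. For *Dmc1* the effect in Stra8KO minus that in the cultures labelled Spo11KO was -0.78 on the log2 scale (SE 0.172, adjusted p = 0.000372, edgeR), and for *Tex11* it was -0.46 (SE 0.0864, adjusted p = 3.82e-05). In CPM, all 4 Stra8KO libraries of each gene lay below the 4 libraries labelled Spo11KO. The same held for *Meiob*, *Mnd1*, *Msh4*, *Msh5* and *Hfm1*. The share of all genes with this separation was not computed. Of all genes tested, 30.7% were called lower in Stra8KO in Veh and 28.9% in NRRA, which is a different measure. Per 10000 pan-germ counts the separation of *Dmc1* and *Tex11* did not hold in Veh. There *Dmc1* had 99.7 and 109 in Stra8KO against 70.2 and 84.8, and *Tex11* had 472 and 512 against 395 and 411. In these data 25.1% of all genes tested had a called interaction.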

How the results depend on the processing

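For called differences of the 9 genes, and for *Mcmdc2* between genotypes in NRRA where the alternative made a call, the sign reversed with scaling to the pan-germ genes and with no other alternative run. The reversed differences of Stra8KO against the cultures labelled Spo11KO in Veh were 0.43 for *Dmc1*, 0.16 for *Msh4*, 0.11 for *Msh5*, 0.29 for *Tex11*, 0.57 for *Psmc3ip* and 0.30 for *Mnd1*, and in NRRA 0.26 for *Msh4*, 1.01 for *Mcmdc2*, 0.50 for *Psmc3ip* and 0.088 for *Mnd1*. On that scale the calls between genotypes went from 8 to 4 in Veh and from 8 to 5 in NRRA. For NRRA in Stra8KO the count of 4 became 2 with no filter, 2 with the DESeq2 Wald test, 2 at an adjusted p under 0.01 and 1 with a change of at least 1.5-fold. For NRRA in Spo11KO the count of 5 became 3 with DESeq2 and 2 with at least 1.5-fold, and for the interaction 2 became 1 with at least 1.5-fold. Leaving out a library gave between 1 and 4 calls for NRRA in Stra8KO, 3 and 5 for NRRA in Spo11KO, 8 in each genotype comparison and 2 and 3 for the interaction.

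Same-numbered replicates did not deviate together (correlations between -0.03 and 0.06). This cannot tell whether they shared a culture or a day, which is not given in the sources used here. With a replicate block the calls among the 9 genes stayed at 4, 5, 8, 8 and 2 in the 5 comparisons, and no call changed.

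Over all genes, DESeq2 called 3336 interactions against 5174. With at least 1.5-fold the counts were 3672 and 4408 for NRRA in Stra8KO and Spo11KO (8620 and 10280 in the report), 7315 and 7749 for genotype in Veh and NRRA (12826 and 13170) and 2157 for the interaction. Scaling by total counts gave 6491 higher and 4034 lower genes for NRRA in Spo11KO (5038 and 5242 with TMM), 5349 and 8182 for genotype in NRRA (7214 and 5956) and 2188 and 3472 for the interaction (3052 and 2122). Pan-germ scaling gave 16286 higher and 289 lower for genotype in Veh (6501 and 6325 with TMM), 16708 and 504 for genotype in NRRA, 2335 and 8852 for NRRA in Stra8KO (4456 and 4164) and 2571 and 8795 for NRRA in Spo11KO. The causes were not tested.

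The low counts of *Meiob* and *Mcmdc2* came with the widest standard errors of the 9 genes in each comparison, and *Spata22* had too few counts for a test. Errors cover the spread between these libraries only. Where leaving out a library left a group with 1, that library was assumed to vary like the others.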

Other observations

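Over the 8 libraries, the genes whose log2 CPM followed the mean of the 9 tested genes most closely were *Polr2b* (Pearson's r 0.998), *Men1* (0.998), *Ctdspl2* (0.998), *Cplane1* (0.996) and *Tex14* (0.996), the last of which is a germ cell gene of intercellular bridges. For *Dmc1* alone they were *Bcorl1* (0.993), *Ube2e1* (0.993), *Rogdi* (0.992), *Zfp961* (0.991) and *Clock* (0.990). These values describe 8 libraries that fall into 4 groups and share the genotype difference in germ cell RNA, and they carry no test. Among the 9 genes, *Mcmdc2* followed the mean of the others least (0.326) and *Meiob* most (0.960), while with the mean of the pan-germ genes these values were 0.466 and 0.948.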
